A study of Bos taurus with 12 samples.

Results

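RNA methyltransferases place methyl groups on RNA after it has been made, and this account covers the bovine genes whose RefSeq symbol begins with METTL, NSUN, TRMT or FTSJ. The gene identifiers of the count files were paired with symbols by Entrez gene ID, which gave 49 members among the 30336 genes listed. They comprised 24 METTL, 6 NSUN, 17 TRMT and 2 FTSJ genes. Reads were found for 48 of them, all but METTL21C, and 43 passed the filter on low counts and were tested between diets.

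Liver was sampled by puncture biopsy from 12 Holstein heifer calves at 4 d of age. The 6 CON calves were born to cows fed a basal diet (1.47 Mcal/kg dry matter, 15.3% crude protein), and the 6 MET calves to cows fed the same diet with rumen-protected Met (Mepron, coated with ethyl cellulose) during the last 28 d of gestation. The Met was given to the dam, so that the calves themselves were reared alike after birth, and the biopsies are mixed tissue. Stranded, single-end libraries of polyadenylated RNA were read on 1 lane. The first sequencing index was shared by the CON libraries and was a different one in the MET libraries, and effects of index and of maternal diet cannot be told apart.

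The methyl donor of nearly all these enzymes is S-adenosylmethionine, which the liver makes from Met. Transfer RNA is the most heavily modified RNA of the cell, and its methyl groups shape folding, stability and decoding. Ribosomal RNA, messenger RNA and mitochondrial RNA have enzymes of their own, and several proteins of the METTL family methylate other proteins instead. Some of the enzymes work only in pairs: METTL3 with METTL14, TRMT6 with TRMT61A, METTL1 with WDR4, and TRMT112 with several catalytic partners. The question was whether transcripts of these genes differed in the liver between calves of the CON and MET groups.

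The library of CON replicate 1 differed from that of CON replicate 4 by little more than counting noise (chi-square per gene of 1.31), as did MET replicates 1 and 3 (1.23), whereas the other 64 library pairs lay between 23.25 and 122.2. The reads of each of these pairs were therefore summed, which left 5 CON and 5 MET samples, and results over the 12 single libraries stand beside those over the 10 samples where the call differs. Library totals ran from 8277789 to 10397604 counted reads, and members took 0.0554 to 0.0841% of them. A floor of 3 reads in a single library equalled 0.277 to 0.377 CPM (TMM-scaled reads per fixed library total), which covers counting error only. Hepatocyte markers were abundant throughout, with summed levels of 93396 to 140510 CPM over 6 genes in CON and 78112 to 113410 CPM in MET. All 6 had a log2 fold change below 0 (median -0.29), and 2 of 6 were lower in MET at an unadjusted p of at most 0.05. The 8 macrophage markers summed to 1213 to 1629 CPM in CON and 1430 to 1915 CPM in MET, with 3 of 8 higher in MET at that p. The 6 markers of proliferating cells summed to 22.8 to 83.5 CPM in CON and 11.3 to 29.9 CPM in MET, with 5 of 6 lower at that p. Of the endothelial and the stellate or fibroblast markers, 1 of 6 each was lower, and 0 of 3 tested cholangiocyte, 0 of 2 erythroid and 0 of 3 lymphocyte markers passed it in either direction. Among all genes tested, 7.83% were higher and 8.52% lower at that p. Log2 fold changes were above 0 in 8 of 8 macrophage, 3 of 3 lymphocyte and 2 of 6 endothelial markers. They were above 0 in 0 of the tested proliferating, stellate or fibroblast, cholangiocyte and erythroid markers. No marker of these lists was at 0, the summed levels overlapped between diets, and their part in the results below was not tested. In bulk tissue, fewer cells of a type and less RNA per cell cannot be told apart.

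Over the 10 samples, 0 of the 43 tested members reached an FDR of 0.10 (edgeR, quasi-likelihood F, adjusted by Benjamini and Hochberg over all genes tested), and neither did any of the 13242 genes tested (0.0%). Entered as 12 single libraries, edgeR placed 3 members at or below that FDR, all higher in MET: TRMT61A, TRMT112 and TRMT10B. Of all 13212 genes tested that way, 2.09% were called higher and 2.32% lower in MET. DESeq2 over the 10 samples called the same 3 members, beside 2.31% of all genes called higher and 2.51% called lower. All 3 belong to the machinery of cytosolic tRNA methylation.

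At an unadjusted p of at most 0.05, 7 members were higher in MET (TRMT61A, TRMT112, TRMT10B, METTL18, TRMT11, TRMT1 and METTL1) and 0 were lower. Among all genes tested, 7.83% were higher and 8.52% lower at that p, and 7 of 43 is 16.3%. The count of 7 was 4 when CON replicates 1 and 4, CON replicate 3 or MET replicate 2 were left out. TRMT61A, TRMT112 and TRMT10B were among those 4 each time. Over the 12 libraries, 9 members (20.9%) were higher at that p, the same 7 with TRMT2A and METTL17, and 0 were lower, beside 10.2% higher and 10.4% lower of all genes. The median log2 fold change (MET over CON) of the tested members was 0.14, against -0.0028 over all genes, and 30 of 43 members (69.8%) were above 0 against 49.5% of all genes. Every MET sample lay above every CON sample for 4 members, TRMT61A, TRMT112, TRMT10B and TRMT11, and the reverse held for 0. Among all genes, 1.91% were separated upward in this way and 1.8% downward.

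**Figure D1:**
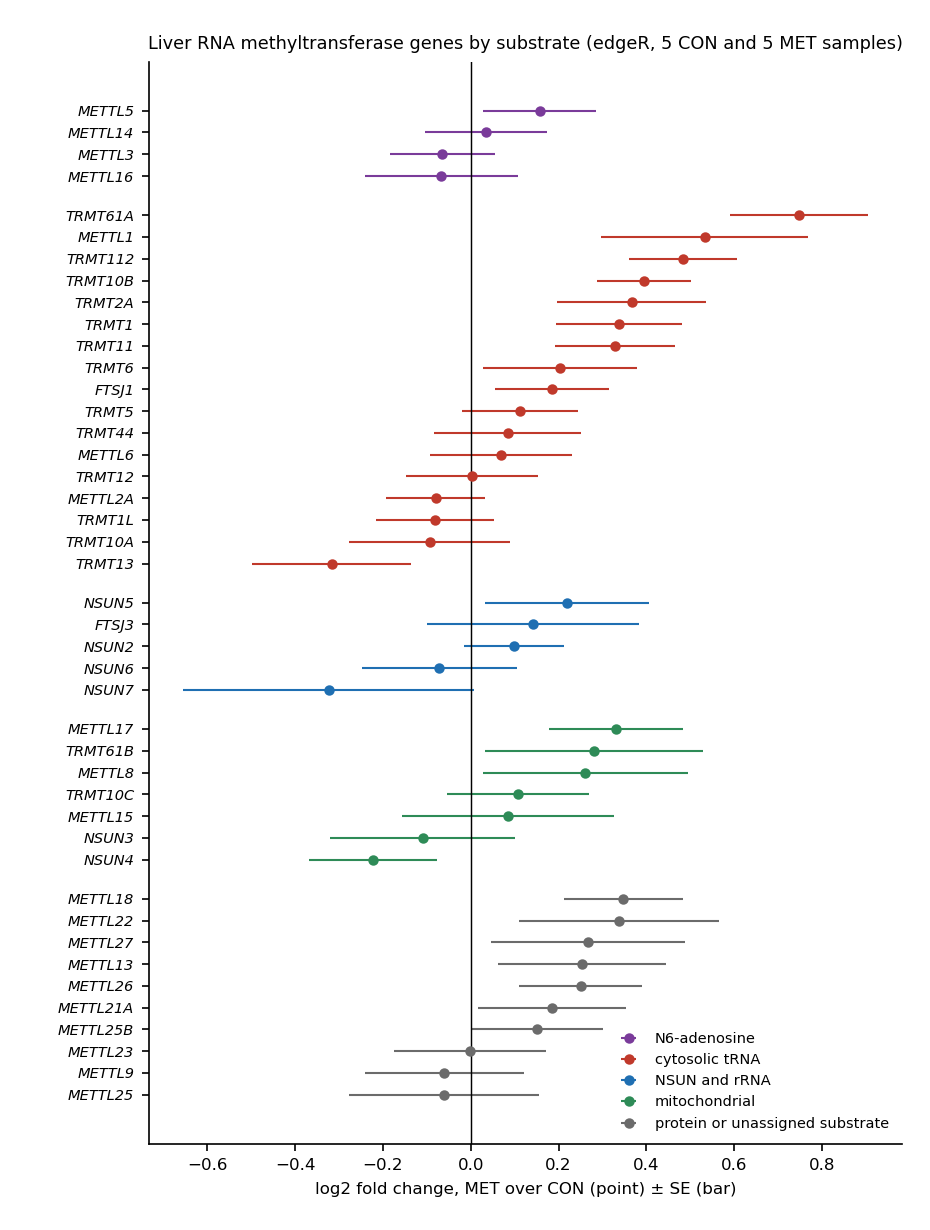
Log2 fold change between MET and CON (horizontal axis) of the 43 tested members, grouped and coloured by the RNA or protein they act on; points are edgeR estimates and bars 1 SE over 5 CON and 5 MET samples. The cytosolic tRNA group runs from -0.32 for TRMT13 to 0.75 for TRMT61A, and the 4 N6-adenosine genes lie between -0.07 and 0.16.

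The group of 18 genes for cytosolic tRNA made up 17 of the 43 tested members (39.5%) and held 6 of the 7 with p at most 0.05, beside the 7.83% of all genes higher and 8.52% lower. The 6 include TRMT112, which serves enzymes for 18S rRNA as well. Of the 17 tested genes of the group, 13 had a log2 fold change above 0, beside 49.5% of all genes, and 4 below. Their median was 0.18, against 0.22 in the group of protein methyltransferases and unassigned members, where 7 of 10 were above 0. TRMT61A and TRMT6 form the enzyme that makes N1-methyladenosine in the T loop of tRNA, with TRMT61A as its catalytic subunit. TRMT61A (gene 510283, chr21:69817755-69824187, UMD 3.1.1) was at 13.9, 16.8, 14.4, 15.7 and 22.4 CPM in CON replicates 1+4, 2, 3, 5 and 6. In MET replicates 1+3, 2, 4, 5 and 6 it was at 24.6, 24.1, 35.5, 26.6 and 28.9 CPM. The lowest MET sample thus stood above the highest CON sample, which was CON replicate 6. The mean was 16.6 ± 3.41 CPM for CON and 28.0 ± 4.65 CPM for MET (SD over 5 samples each), a 1.68-fold difference (log2 fold change 0.75 ± 0.16 SE, edgeR FDR = 0.156). The FDR was 0.0402 over the 12 libraries and 0.00671 by DESeq2 over the 10 samples. With each sample's trend of level on gene length removed, the log2 fold change was 0.72.

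TRMT6, the partner that does not carry the catalytic site, was at 10.97, 8.91, 13.9, 13.4 and 15.5 CPM in CON and 14.0, 17.6, 16.9, 12.7 and 11.1 CPM in MET, in the same order of replicates. The diets overlapped over most of their range, and the log2 fold change was 0.20 ± 0.18 SE (edgeR FDR = 0.592, 95% interval -0.18 to 0.59). Across the 10 samples, the levels of TRMT6 and TRMT61A had a Pearson r of 0.435 (permutation p = 0.209, adjusted over 6 pairs 0.334) and a Spearman rho of 0.345 (permutation p = 0.333, adjusted 0.399). Without the 2 samples farthest from the median of TRMT6, r was 0.365, and within diets it was 0.254. A relation between the levels of these partners was therefore not shown.

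TRMT112 is a small protein that stabilises several methyltransferases, among them TRMT11 for N2-methylguanosine in tRNA, METTL5 and BUD23 for 18S rRNA, and ALKBH8 for the wobble position of tRNA. Its gene (507833, chr29:43228263-43229598) was at 19.2, 20.5, 16.8, 19.6 and 21.0 CPM in CON. In MET it was at 22.1, 27.0, 28.2, 25.5 and 33.3 CPM, with MET replicate 6 the highest and no overlap between diets. The means of 19.4 ± 1.64 CPM and 27.2 ± 4.09 CPM (SD over 5 samples each) gave a log2 fold change of 0.48 ± 0.12 SE, or 1.40-fold (edgeR FDR = 0.174). Over the 12 libraries the FDR was 0.0718, and by DESeq2 it was 0.0378. TRMT112 has a short transcript of 992 exonic bases, and 51 of them overlap ESRRA on the opposite strand. The part of that overlap in these values was not tested. Across all tested genes the log2 fold change correlated with log2 exonic length at r = -0.256, shorter genes being higher in MET. With the length trend removed, TRMT112 had a log2 fold change of 0.33 and its diets overlapped.

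TRMT11 (gene 514867, chr9:25576958-25640578) carries the catalytic site of the TRMT11 and TRMT112 enzyme. Its level was 5.87, 5.65, 7.31, 7.08 and 7.25 CPM in CON and 8.19, 9.17, 7.94, 8.83 and 7.52 CPM in MET. The groups came close, with 7.31 CPM as the highest CON and 7.52 CPM as the lowest MET value, but did not overlap. The log2 fold change was 0.33 ± 0.14 SE (unadjusted p = 0.0328, edgeR FDR = 0.269), and 0.38 with the length trend removed. Of the 6 partners of TRMT112 that were followed, TRMT11, BUD23, METTL5, ALKBH8, THUMPD2 and THUMPD3, a pair (TRMT11 and BUD23) was higher in MET at p of at most 0.05 and 0 were lower, beside 7.83% higher and 8.52% lower of all genes. That count was 1 with the length trend removed and 1 with a replicate block over the 12 libraries. TRMT11 and TRMT112 had a Pearson r of 0.523 over the 10 samples (permutation p = 0.121, adjusted 0.334) and a Spearman rho of 0.648 (permutation p = 0.0495, adjusted 0.148). That r was 0.453 without 2 samples and -0.36 within diets, so the pooled value did not hold within groups.

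TRMT10B belongs to a family that methylates a purine next to the acceptor stem of tRNA. The gene (516258, chr8:62326345-62339564, 1016 exonic bases) was at 11.1, 9.54, 9.82, 11.3 and 10.4 CPM in CON. All MET samples were higher, at 13.0, 13.9, 15.1, 13.4 and 13.4 CPM, and the spread within each diet was small. Means were 10.4 ± 0.79 CPM and 13.8 ± 0.80 CPM (SD over 5 samples each), a log2 fold change of 0.39 ± 0.11 SE (edgeR FDR = 0.175). The FDR was 0.0855 over the 12 libraries and 0.0773 by DESeq2. With the length trend removed, the log2 fold change was 0.25 and the diets overlapped. Its relative TRMT10A had a log2 fold change of -0.09 ± 0.18 SE.

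**Figure D2:**
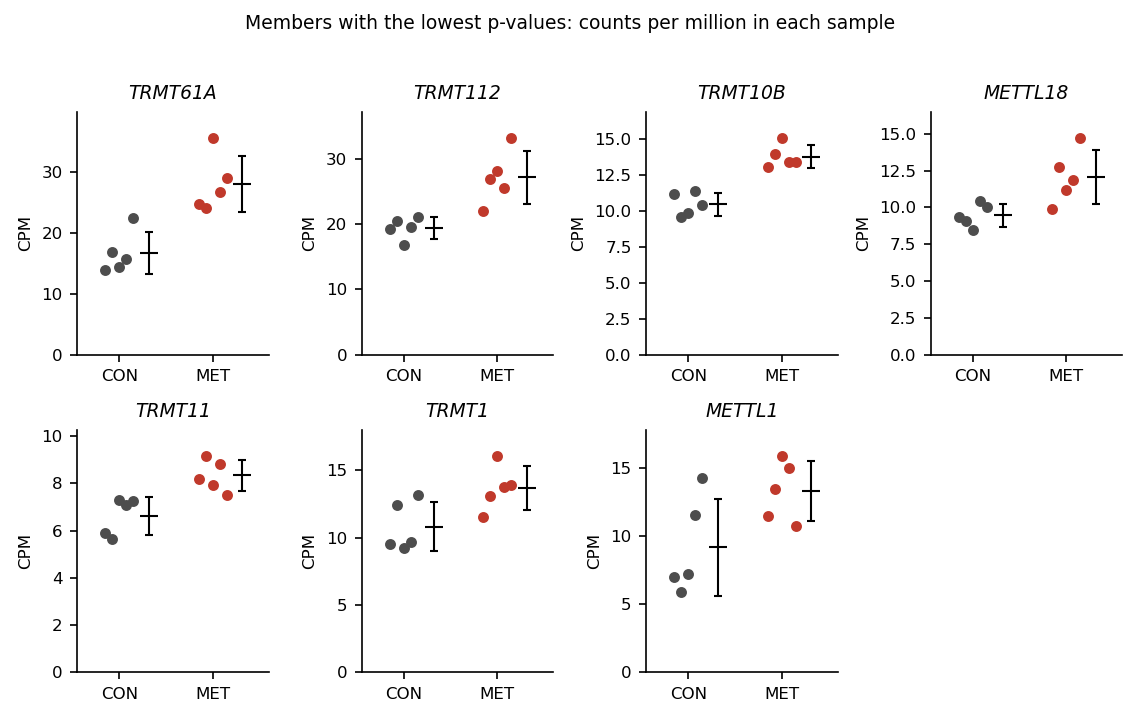
Counts in CPM (vertical axes, from 0) of the 7 members with an unadjusted p of at most 0.05, ordered by p; points are the 5 CON and 5 MET samples, and the bar beside each group is its mean ± SD. For TRMT61A, TRMT112, TRMT10B and TRMT11 the lowest MET sample lies above the highest CON sample, whereas METTL18, TRMT1 and METTL1 overlap.

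TRMT1 makes N2,N2-dimethylguanosine at the junction of the arms of tRNA. It was at 9.57, 12.4, 9.25, 9.68 and 13.2 CPM in CON and 11.6, 13.1, 16.1, 13.7 and 13.9 CPM in MET. The CON samples of replicates 2 and 6 reached into the MET range, and the log2 fold change was 0.34 ± 0.14 SE (unadjusted p = 0.0369, edgeR FDR = 0.281). METTL1, which with WDR4 places N7-methylguanosine in the variable loop of tRNA, varied widely within CON. Its level (gene 511197, chr5:56019358-56023623) was 6.99, 5.90, 7.20, 11.6 and 14.2 CPM in CON and 11.5, 13.5, 15.9, 15.0 and 10.7 CPM in MET. CON replicates 5 and 6 lay inside the MET range, and the log2 fold change of 0.53 came with an SE of 0.24 (unadjusted p = 0.0429, edgeR FDR = 0.292).

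WDR4, the partner without which METTL1 does not bind tRNA, was at 4.36, 2.76, 6.17, 4.37 and 6.53 CPM in CON and 5.76, 7.90, 6.44, 6.26 and 6.38 CPM in MET, a log2 fold change of 0.43 ± 0.22 SE (edgeR FDR = 0.348). Over the 10 samples METTL1 and WDR4 had a Pearson r of 0.72 (permutation p = 0.0132, adjusted over 6 pairs 0.0791) and a Spearman rho of 0.721 (permutation p = 0.0237, adjusted 0.142). CON replicate 2 held the lowest level of both genes. The r within diets was 0.552, and it was 0.226 without the 2 samples farthest from the median of METTL1. Leaving out samples by their distance in METTL1 narrows its range, which by itself tends to lower r. That drop therefore cannot show whether the relation rested on those samples. After adjustment over the 6 pairs, the permutation p was 0.0791 for r and 0.142 for rho, and a relation was not established.

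The remaining genes for cytosolic tRNA did not pass p of 0.05 over the 10 samples. FTSJ1, which methylates the ribose in the anticodon loop and lies on chromosome X, was at 21.4, 19.1, 25.1, 21.0 and 20.4 CPM in CON and 20.1, 30.6, 24.1, 25.2 and 21.8 CPM in MET (log2 fold change 0.18 ± 0.13 SE). TRMT2A, the enzyme for 5-methyluridine in the T loop, averaged 17.2 ± 4.42 CPM for CON and 22.2 ± 3.29 CPM for MET (SD), with an unadjusted edgeR p of 0.0527, or 0.0288 over the 12 libraries. TRMT13, which methylates a ribose in the acceptor stem, had the lowest log2 fold change of the group at -0.32 ± 0.18 SE. Its MET replicate 6 was at 16.5 CPM, while all other samples of both diets were at 28.4 CPM or above. METTL2A and METTL6 (3-methylcytidine), TRMT5 (N1-methylguanosine beside the anticodon), TRMT12 (wybutosine), TRMT44 (a methylated uridine ribose), TRMT1L and TRMT10A lay between -0.09 and 0.11. TRMT9B was at 1 to 18 reads per library and was not tested.

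The N6-adenosine group, which includes the writers of N6-methyladenosine in mRNA, showed no difference that exceeded the spread between samples. METTL3, the catalytic subunit of the mRNA writer (gene 540339, chr10:25716677-25731506), was at 17.8, 15.7, 19.6, 20.4 and 21.3 CPM in CON and 16.8, 20.2, 20.1, 17.997 and 15.8 CPM in MET. METTL14, which holds the RNA for METTL3, was at 10.2, 11.4, 11.99, 11.8 and 10.7 CPM in CON and 11.5, 10.4, 14.3, 12.4 and 8.86 CPM in MET. The diets overlapped for both genes, and the MET samples of METTL14 reached below and above all of its CON samples. The log2 fold change of METTL3 was -0.06 ± 0.12 SE (95% interval -0.33 to 0.20) and that of METTL14 0.03 ± 0.14 SE (-0.27 to 0.34). The edgeR FDR was 0.826 for METTL3 and 0.929 for METTL14. These intervals bound the differences at this depth and sample number and do not show equal levels.

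METTL16 methylates U6 snRNA and hairpins in the mRNA of MAT2A, which encodes an S-adenosylmethionine synthetase. It was at 14.7, 10.3, 16.8, 11.3 and 14.1 CPM in CON and 13.9, 13.1, 16.6, 10.4 and 10.2 CPM in MET, a log2 fold change of -0.07 ± 0.17 SE. The sign of that estimate changed with the length trend removed (0.04), as did the sign for METTL14 when 1 library of each near-identical pair was used (-0.0067). METTL5, the 18S rRNA enzyme that needs TRMT112, was at 9.62, 10.3, 8.91, 10.2 and 9.22 CPM in CON and 9.78, 12.5, 10.5, 12.1 and 9.06 CPM in MET. The diets overlapped, and its log2 fold change was 0.16 ± 0.13 SE, or 0.02 with the length trend removed. METTL4, which acts on U2 snRNA, had 3 to 17 reads per library and was not tested.

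**Figure D3:**
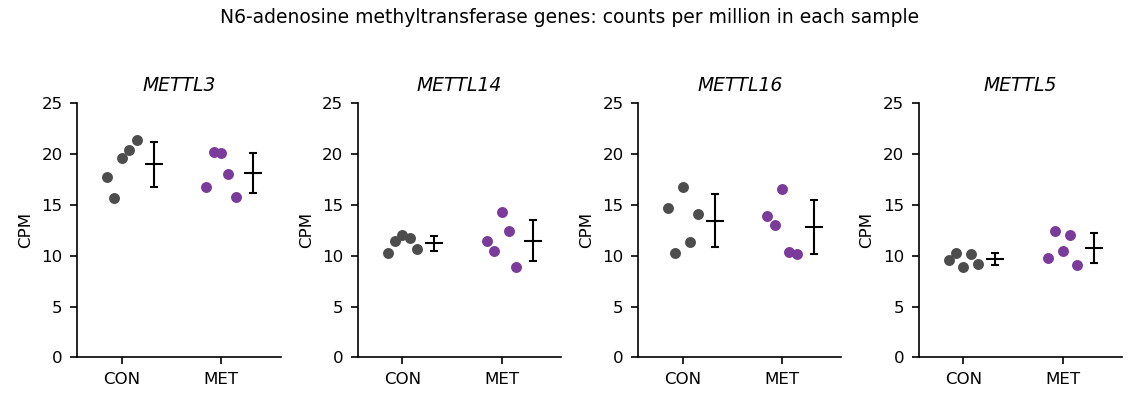
Counts in CPM (vertical axes, all from 0 to 25) of METTL3, METTL14, METTL16 and METTL5 in the 5 CON and 5 MET samples (points), with the mean ± SD of each group beside them. The MET and CON samples overlap for all 4 genes.

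METTL3 and METTL14 had a Pearson r of 0.38 over the 10 samples (permutation p = 0.284, adjusted 0.334) and a Spearman rho of 0.248 (permutation p = 0.492, adjusted 0.492). The r was 0.0624 without 2 samples and 0.399 within diets. METTL5 and TRMT112 had a Pearson r of 0.342 (permutation p = 0.334, adjusted 0.334), a Spearman rho of 0.394 (permutation p = 0.264, adjusted 0.399), and an r of 0.0715 without 2 samples and -0.12 within diets. No relation was shown for either pair.

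The NSUN genes make 5-methylcytidine, and FTSJ3 methylates ribose in the precursor of rRNA. Without NSUN3 and NSUN4, which are counted with the mitochondrial genes, NSUN2, NSUN5, NSUN6, NSUN7 and FTSJ3 held 0 of 5 tested genes with p at most 0.05, beside 7.83% higher and 8.52% lower of all genes. NSUN2, the broadest of these enzymes with tRNA and mRNA among its substrates, showed overlapping diets. It was at 48.0, 50.0, 52.9, 51.9 and 58.8 CPM in CON and 50.2, 61.2, 55.1, 48.3 and 65.2 CPM in MET, a log2 fold change of 0.10 ± 0.11 SE (edgeR FDR = 0.704). FTSJ3 varied widely, from 14.9 CPM in CON replicate 2 to 39.2 CPM in CON replicate 6, with 18.1, 26.6 and 29.3 CPM in the other CON samples and 25.2, 36.8, 31.5, 26.7 and 21.1 CPM in MET. Its log2 fold change was 0.14 ± 0.24 SE. NSUN7, with the largest coefficient of variation of the tested members (32.6%), was at 1.18, 1.004, 1.37, 1.77 and 1.14 CPM in CON and 1.17, 0.878, 0.345, 1.45 and 1.24 CPM in MET. MET replicate 4 was thus at the floor of 3 reads, and the log2 fold change of -0.32 had an SE of 0.33. NSUN5, for 28S rRNA, and NSUN6, for tRNA, had log2 fold changes of 0.22 ± 0.19 SE and -0.07 ± 0.18 SE.

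Among the 8 genes whose products act in mitochondria, 7 were tested and 0 had p at most 0.05, beside 7.83% higher and 8.52% lower of all genes. TRMT10C, the tRNA methyltransferase of mitochondrial RNase P, was at 19.9, 20.5, 30.7, 25.4 and 25.9 CPM in CON and 23.1, 28.6, 34.0, 25.6 and 20.6 CPM in MET (log2 fold change 0.11 ± 0.16 SE). HSD17B10, its partner in that complex, was at 381, 522, 334, 433 and 363 CPM in CON and 463, 441, 477, 369 and 585 CPM in MET. The levels of both overlapped between diets. TRMT10C and HSD17B10 had a Pearson r of -0.36 (permutation p = 0.304, adjusted 0.334), which was -0.84 without 2 samples and -0.51 within diets, and a Spearman rho of -0.34 (permutation p = 0.332, adjusted 0.399). METTL17, a factor of mitoribosome assembly, averaged 19.98 ± 1.91 CPM for CON and 25.1 ± 5.56 CPM for MET (SD), with an unadjusted edgeR p of 0.0511, or 0.0153 over the 12 libraries. In NSUN4 (mitochondrial rRNA) the log2 fold change was -0.22 ± 0.15 SE and in NSUN3 (mitochondrial tRNA for Met) -0.11 ± 0.21 SE. METTL8, METTL15 and TRMT61B lay between 0.09 and 0.28, and TRMT2B had 4 to 11 reads per library and was not tested.

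The last group of 13 genes holds protein methyltransferases and members whose substrate is not assigned here, and 10 were tested. Of these 10, 7 had a log2 fold change above 0 and 3 below, with a median of 0.22. At p of at most 0.05, 1 was higher and 0 lower in MET, beside 7.83% higher and 8.52% lower of all genes. METTL18, which methylates a histidine of the ribosomal protein RPL3, was at 9.34, 9.04, 8.45, 10.4 and 10.1 CPM in CON and 9.87, 12.8, 11.2, 11.8 and 14.7 CPM in MET. MET replicates 1+3 fell inside the CON range and the other 4 MET samples were above it (log2 fold change 0.35 ± 0.13 SE, unadjusted p = 0.0240, edgeR FDR = 0.244). METTL26 had the highest level per length of the 43, and was at 31.0, 34.0, 23.9, 27.6 and 30.9 CPM in CON and 31.7, 30.9, 36.3, 30.9 and 45.6 CPM in MET. Its log2 fold change was 0.25 ± 0.14 SE, and 0.10 with the length trend removed. METTL13 (elongation factor 1A), METTL21A (HSP70), METTL22, METTL25B and METTL27 lay between 0.15 and 0.34, and METTL9 (a histidine enzyme), METTL23 and METTL25 between -0.06 and -0.0021. METTL21E and METTL24, with at most 11 reads in any library, and METTL21C, with 0, were not tested.

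**Figure D4:**
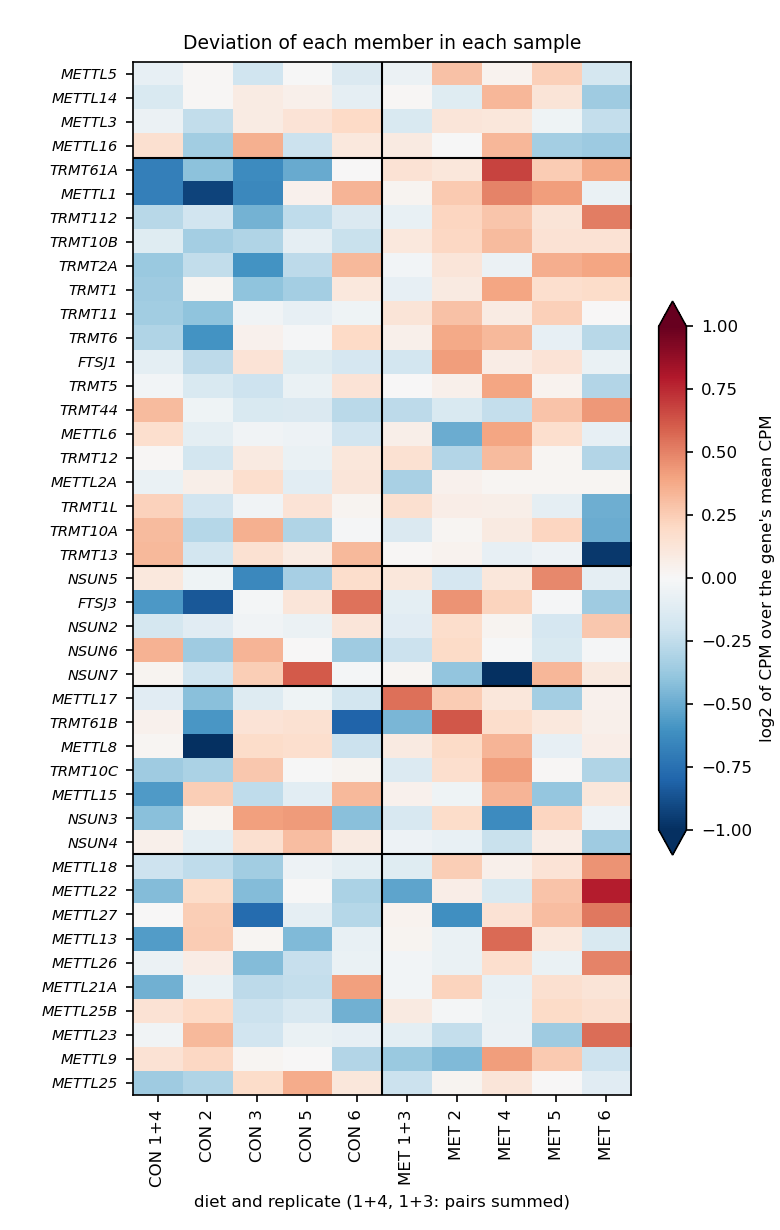
Log2 of the CPM of each tested member over its mean CPM (colour, red above and blue below the mean) in the 10 samples (columns), with genes in rows by group (N6-adenosine, cytosolic tRNA, NSUN and rRNA, mitochondrial, protein or unassigned) and by log2 fold change within a group. Red cells gather in the MET columns for the upper rows of the cytosolic tRNA group, from TRMT61A to TRMT11, which follows from the order of the rows. Some CON cells there are above the mean too, such as CON replicate 6 for METTL1 and TRMT2A. The 4 N6-adenosine rows show no such split.

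Sample by sample, the median deviation of the 43 members from their own means lay between -0.15 (CON replicate 2) and 0.02 (CON replicate 6) in CON and between -0.0058 (MET replicates 1+3) and 0.15 (MET replicate 5) in MET, on the log2 scale. The median of all genes stayed between 0.00047 and 0.0123 in every sample. MET replicates 2, 4 and 5 had 29 to 33 of 43 members above their own mean, against 21 in MET replicates 1+3, 23 in MET replicate 6 and 13 to 22 in the CON samples. CON replicate 6 and both lower MET samples thus lay side by side, and the members did not separate the diets as a group.

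Levels were compared between genes per length, as CPM per kilobase of exons (RPKM). The tested members had a median of 5.69 RPKM, against 5.12 RPKM over all genes tested. METTL26 at 31.6, TRMT112 at 23.5 and NSUN2 at 17.8 RPKM were highest, and NSUN7 at 0.218 RPKM was lowest. Of the mRNA writers, METTL3 stood at 9.23 and METTL14 at 3.93 RPKM. TRMT61A, at 11.02 RPKM, was above its partner TRMT6, at 2.78 RPKM. For scale, albumin was at 24798 RPKM. The coefficient of variation over the 10 samples had a median of 19.1% in the members and 21.6% over all genes, and it ran from 9.09% in METTL2A to 32.6% in NSUN7.

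**Figure D5:**
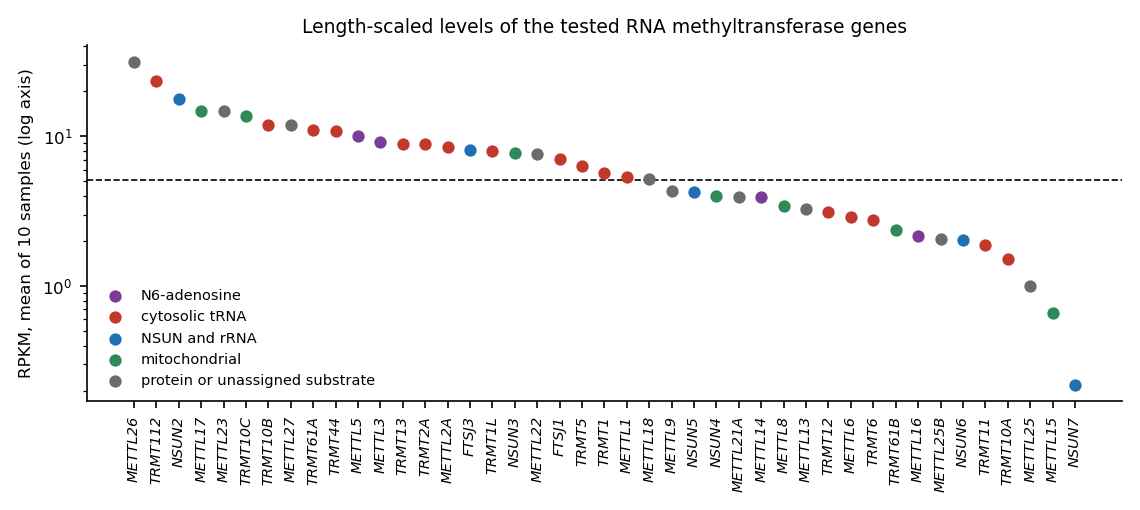
Mean RPKM over the 10 samples (vertical axis, logarithmic) of the 43 tested members, ordered by level and coloured by group; the dashed line is the median of all tested genes (5.12 RPKM). METTL26, TRMT112 and NSUN2 lead, and NSUN7 is lowest.

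RNA methylation also involves 58 genes listed beside the members, whose symbols begin otherwise, and 57 of them were tested. The gene left out was IGF2BP2, with 2 to 10 reads per library, near the floor. Its MET samples (0.206 to 0.562 CPM) lay below its CON samples (0.628 to 1.04 CPM). At p of at most 0.05, 7 of the 57 were higher in MET and 0 lower, beside the 7.83% and 8.52% of all genes, with a median log2 fold change of 0.08. That count was 4 without CON replicates 1 and 4, 12 without CON replicate 6 and 2 without MET replicate 4. Over the 12 libraries it was 9, with HENMT1 at an unadjusted edgeR p of 0.0231 and IGF2BP1 at 0.0472 added, beside 10.2% higher and 10.4% lower of all genes in that fit. MRM1, which methylates ribose in mitochondrial rRNA, was at 5.87, 6.91, 4.91, 7.50 and 3.94 CPM in CON and 10.8, 8.68, 7.59, 8.61 and 12.7 CPM in MET, with no overlap. Its log2 fold change was 0.73 ± 0.20 SE (edgeR FDR = 0.175 over the 10 samples and 0.0656 over the 12 libraries, DESeq2 FDR = 0.0431), and it was the only gene of this list past an FDR of 0.10 in the latter 2 fits.

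The enzymes for cytosolic rRNA, 6 of 6 with a log2 fold change above 0 beside 49.5% of all genes, included EMG1 (a pseudouridine methyltransferase of 18S rRNA) at 13.7 ± 2.44 CPM for CON and 19.2 ± 4.501 CPM for MET (SD over 5 samples each). SPOUT1 averaged 17.8 ± 1.61 and 23.7 ± 5.53 CPM, and BUD23, a TRMT112 partner, 21.3 ± 1.57 and 26.5 ± 5.0 CPM. Among those 6 enzymes these 3 had p at most 0.05, beside 7.83% higher and 8.52% lower of all genes, and the edgeR p of BUD23 was 0.191 with the length trend removed. ALYREF, an export factor that reads 5-methylcytidine, averaged 25.6 ± 4.82 and 35.2 ± 6.25 CPM, MTERF4, the partner of NSUN4, 23.96 ± 2.58 and 28.5 ± 1.85 CPM, and CDK5RAP1, which modifies mitochondrial tRNA, 16.4 ± 1.93 and 19.7 ± 1.19 CPM. Of the partners, erasers and readers of N6-methyladenosine, 0 of 7 writer partners (WTAP, VIRMA and ZC3H13 among them) and 0 of 2 erasers (FTO and ALKBH5) had p at most 0.05, beside those same shares of all genes. The one reader with such a p over the 10 samples among 11 tested was ALYREF, which is a reader of 5-methylcytidine.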

How the data were processed

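Raw counts of reads per gene were deposited by the authors for each of the 12 libraries, by Entrez gene ID and without normalization. Per the labels and the study's methods, reads were trimmed with Trimmomatic, aligned to UMD 3.1.1 with STAR 2.5.3a and counted, by strand, with featureCounts of Subread 1.5.2. Reads matching several places or genes were left out. Each library was placed in CON or MET by its label, and 0 columns were left unused.

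Symbols came from a RefSeq gene table of a later assembly (ARS-UCD2.0), by Entrez ID, and coordinates from the count files. Groups by substrate were assigned from general knowledge. The members and lists were chosen with earlier results of these data known.

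Counts were tested with edgeR 4.0.16 (R 4.3.3): default filter (minimum count 10, minimum total 15), TMM factors, quasi-likelihood test on diet alone, Benjamini-Hochberg adjustment over all genes tested, called at FDR of 0.10, as in the study's methods. Libraries with a chi-square per gene under 2 were summed. The SE is the log2 fold change over the root of F, and 95% intervals use the degrees of freedom of that test. CPM are TMM-scaled, and RPKM divide them by exonic length. Partner genes were compared on log2 CPM (prior count 2) by two-sided permutation tests with 100000 resamples. p-values measure the spread between these samples.

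Values in every sample were given for members with p of at most 0.05, for 12 chosen subunits (METTL3, METTL14, METTL16, METTL5, METTL1, NSUN2, TRMT6, TRMT61A, TRMT112, TRMT10C, FTSJ1 and FTSJ3), the 3 highest by RPKM and the most variable 2, and for partners in the 6 pairs. In the other list, MRM1 was given in every sample and the remaining genes with p of at most 0.05 as mean ± SD. Alternatives were the 12 libraries singly, 1 library of each pair, a replicate block, DESeq2 1.42.0, voom of limma 3.58.1, robust estimation, no filter, RLE, upper quartile and library size scaling, removal of each sample's loess trend (span 0.5) on log2 exonic length, and each sample left out. The steps were tested on simulated data.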

Additional observations from a re-analysis of the deposited data

Results flagged for a closer look

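Among 86 groups of 5 samples (43 tested members in each diet), 4 held a sample far from the others by Dixon's 95% limit, and about 4.3 would be expected at 1 in 20. METTL23 was at 33.02 CPM in CON replicate 2, with the other CON samples at 23.07 to 25.68 CPM. It was at 38.82 CPM in MET replicate 6, with the other MET samples at 20.57 to 25.3 CPM. METTL23 shares 822 exonic bases with SRSF2 on the opposite strand, and the part of that overlap in these values was not tested. TRMT13 was at 16.48 CPM in MET replicate 6, with the other MET samples at 30.48 to 32.96 CPM. METTL2A was at 12.31 CPM in MET replicates 1+3, a summed pair of near-identical libraries, while the other MET samples lay at 15.64 to 15.89 CPM.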

How the results depend on the processing

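The count of members at an FDR of at most 0.10 was 0 over the 10 samples and 3 with the 12 libraries entered singly, with DESeq2 over the 10 samples, and with DESeq2 over the 12 libraries, an alternative chosen after seeing the data. Entering the pairs singly counts near-identical libraries as separate calves. Of all genes, 2.09% were called higher and 2.32% lower over the 12 libraries by edgeR, and 2.31% and 2.51% over the 10 samples by DESeq2. The count of members was 0 in every other setting, including each sample left out. At an unadjusted p of at most 0.05 the main test held 7 members, beside 7.83% higher and 8.52% lower of all genes. That count ran from 4 to 9 when single samples were left out. In the list of other RNA methylation genes it was 7, fell to 4 with scaling by library size only, and ran from 2 to 12 with single samples left out. Members without overlap between diets were 4, beside 1.91% of all genes separated upward and 1.8% downward, and 2 (TRMT61A and TRMT11) after the length correction. TRMT11 dropped out with upper quartile scaling and with scaling by library size only. With single samples left out the 4 stayed, and METTL17, METTL18, TRMT2A or TRMT13 (the last lower in MET) was added in some fits. Shares of all genes in these settings are not given here. Of 18 members given in full, 16 kept the sign of their log2 fold change in all 21 settings. METTL14 (0.03) was -0.0067 with the first library of each pair and -0.052 to 0.11 with single samples left out, and METTL16 (-0.07) was 0.039 after the length correction and -0.17 to 0.023 with single samples left out. The cause of these changes was not tested. The median log2 fold change of the members stayed between 0.09 and 0.16 when single samples were left out. Counting error limits members with few reads, such as NSUN7.

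Replicate numbers did not pair the libraries: deviations of same-numbered libraries correlated at -0.19 to 0.15, over 0.1 in 1 of 6, and 0 of 6 correlated best with their own number. With a replicate block over the 12 libraries, 0 members and 6 genes of all were at an FDR of at most 0.10, against 3 members and 583 genes without it, and 9 members, all higher, had p at most 0.05 in both, beside 8.02% of all genes higher and 9.2% lower with the block.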
